A study of Mus musculus with 8 samples.

Results

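Merged chromatin accessibility peaks that were present in every ganglionic eminence sample and in neither cortex sample numbered 2282, of 286181 merged regions on chromosomes 1 to 19 of the mouse embryonic forebrain. They were chosen by measured values. Peaks of 8 single-nucleus ATAC-seq samples were joined where they overlapped or touched, and a region was kept if it overlapped a peak of each of the 6 eminence samples and no peak of either cortex sample. The presence of these regions in the eminences and their absence from the cortex is therefore the rule itself and not a finding. A region with no called peak in a sample has no count in that sample's deposited matrix, so the cortex level of the 2282 members was not measured and may lie above 0.

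The ganglionic eminences are the swellings of the ventral embryonic forebrain in which most GABAergic neurons of the telencephalon are born. The medial eminence (MGE) gives rise to many cortical interneurons, the lateral eminence (LGE) to striatal projection neurons and olfactory bulb interneurons, and the caudal eminence (CGE) to further cortical interneurons, whereas the cortex (CTX) itself produces glutamatergic neurons. Homeodomain factors of the Dlx, Gsx and Nkx families and TALE cofactors of the Meis family act in this ventral program. Accessible chromatin far from promoters often holds enhancers, whose accessibility varies more between cell types than that of promoters.

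All samples were wild-type (WT) mouse brain, with 2 samples each of CTX, MGE, LGE and CGE, numbered replicate 1 and replicate 2. Their age was E12.5 (embryonic day) except for CTX replicate 2, which was E14.5, so a member lacked a called peak in cortex at either age. The labels do not say that replicates came from separate litters or animals, and p-values measure only the spread between these samples. Each sample held 3465 to 6845 nuclei, 75850583 to 136418494 counts in peaks and 101677 to 179051 peaks that covered 85.5 to 165 Mb. Of 6 marker genes, 4 followed the labels (Nkx2-1, Lhx6, Emx1 and Neurod6) and Gsx2 and Nr2f2 did not set 1 eminence apart. Nkx2-1, the MGE determinant, had 504 and 326 CPM (counts-per-million, over the gene body and 2000 bp upstream) in the 2 MGE samples, and Emx1, a cortical progenitor factor, had 98.6 and 149 in CTX against 31.9 to 54.4 in the eminences. Gsx2, a factor of LGE progenitors, had 37 and 129 CPM in LGE against 108 and 94.6 in MGE, and Nr2f2, a factor of the CGE, had 226 and 446 in CGE against 230 and 200 in MGE. Between 15 and 56 nuclear barcodes were shared by any pair of libraries. Odd matrix entries made up 9.54% to 10.4% in the samples numbered 1 and 5.17% to 5.85% in those numbered 2, in all 4 regions. Counts are sums over the nuclei of a sample, so more nuclei of a type and more accessibility per nucleus cannot be told apart in them.

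Sequences at the centre of 5 members are shown because these members were among the most accessible overall or among those nearest to subpallial genes, and because they hold the short motifs counted below. Each is 300 bases of the plus strand of GRCm38, read from the RefSeq copy of that build. The Castor2 sequence is chr5:133663100-133663399 (intergenic), Nrg1 is chr8:31901601-31901900 (intron of Nrg1), Gsx1 is chr5:147223611-147223910 (intergenic), Dlx1 is chr2:71512398-71512697 (inside Metap1d, in a region that also covers an exon of it) and Ebf1 is chr11:44887556-44887855 (intron of Ebf1). Names are those of the nearest protein-coding start site and say where a region lies, not which gene it acts on. Capitals mark 4 motifs or their reverse complements: the proneural E-box CAGCTG, the MEIS and PBX type motif TGACAG, the POU octamer ATGCAAAT and the homeodomain core TAATTA.
Castor2: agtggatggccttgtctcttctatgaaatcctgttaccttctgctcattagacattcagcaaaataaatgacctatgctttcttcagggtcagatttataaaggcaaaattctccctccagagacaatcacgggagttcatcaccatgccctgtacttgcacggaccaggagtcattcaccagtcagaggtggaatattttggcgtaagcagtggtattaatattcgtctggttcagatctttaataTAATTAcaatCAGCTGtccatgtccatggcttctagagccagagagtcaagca
Nrg1: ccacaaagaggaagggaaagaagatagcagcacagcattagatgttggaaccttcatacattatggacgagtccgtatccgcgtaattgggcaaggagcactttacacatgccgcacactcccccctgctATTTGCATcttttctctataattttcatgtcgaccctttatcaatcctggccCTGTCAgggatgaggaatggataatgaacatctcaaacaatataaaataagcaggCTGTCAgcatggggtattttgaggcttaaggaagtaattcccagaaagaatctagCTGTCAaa
Gsx1: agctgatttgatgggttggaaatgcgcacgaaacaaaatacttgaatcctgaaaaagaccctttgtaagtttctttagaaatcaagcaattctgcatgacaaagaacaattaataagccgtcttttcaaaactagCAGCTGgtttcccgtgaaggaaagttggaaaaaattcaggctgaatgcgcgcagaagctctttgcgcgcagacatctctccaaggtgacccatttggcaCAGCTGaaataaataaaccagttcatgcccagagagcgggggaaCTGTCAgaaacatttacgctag
Dlx1: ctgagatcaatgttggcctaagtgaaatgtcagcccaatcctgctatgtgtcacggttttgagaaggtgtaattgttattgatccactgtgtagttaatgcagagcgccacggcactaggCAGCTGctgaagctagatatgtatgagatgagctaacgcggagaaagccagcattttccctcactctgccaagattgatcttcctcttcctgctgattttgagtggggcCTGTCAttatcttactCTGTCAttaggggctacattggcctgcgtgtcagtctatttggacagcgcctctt
Ebf1: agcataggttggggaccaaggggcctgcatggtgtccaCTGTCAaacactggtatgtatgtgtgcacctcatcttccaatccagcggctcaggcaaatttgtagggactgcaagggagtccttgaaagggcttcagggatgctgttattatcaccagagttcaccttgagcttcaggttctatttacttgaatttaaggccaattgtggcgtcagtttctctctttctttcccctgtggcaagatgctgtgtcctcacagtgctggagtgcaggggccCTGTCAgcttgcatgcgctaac

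The Nrg1 sequence holds 3 MEIS and PBX type motifs and 1 POU octamer. The Gsx1 sequence has 2 proneural E-boxes and 1 MEIS and PBX type motif, the Dlx1 sequence 1 E-box and 2 MEIS and PBX type motifs, and the Ebf1 sequence 2 MEIS and PBX type motifs. In the Castor2 sequence a homeodomain core lies a few bases from an E-box. None of the 4 motifs is in the central 300 bases of the members nearest to Rnf32 and Mrps35 or of either member nearest to Dlx6, which says only that these letters are not in those windows.

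Members were mostly distal, and narrower than regions open in all 8 samples. Their median width was 836 bp (quartiles 674 and 1087 bp, range 324 to 8308 bp), against 1536 bp for the 66854 regions with a peak in all 8 samples. It was 966 bp for regions with a peak in all eminence samples and 1 CTX sample. For the 8947 regions with a peak in both CTX samples and no eminence sample it was 628 bp. A merged region spans the peaks of every sample that has one, so width is tied to the rule. Of the members 35 (1.53%) lay within 1000 bp of a protein-coding start site, 148 (6.49%) overlapped an exon, 1015 (44.5%) an intron only, and 1084 (47.5%) were intergenic. Promoters made up 22.2% of the regions open in all 8 samples, 2.76% of the 5616 regions open in all eminence samples and 1 CTX sample, and 1.96% of the regions open in CTX alone. The low promoter share was therefore common to all 3 classes of regions that were not open everywhere. The median distance from a member to the nearest start site was 57462 bp, and 52.9% lay more than 50000 bp away, compared with 20424 bp and 31.9% for regions open in all 8 samples, 47710 bp and 49.1% for regions open in the eminences and 1 CTX sample, and 50817 bp and 50.4% for regions open in CTX alone. Median GC content of the central 300 bp was 45.2% in members, 49.7% in regions open everywhere and 46.3% in regions open in CTX alone, so that distance and GC content were close to those of the other regions not open everywhere.

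**Figure D1:**
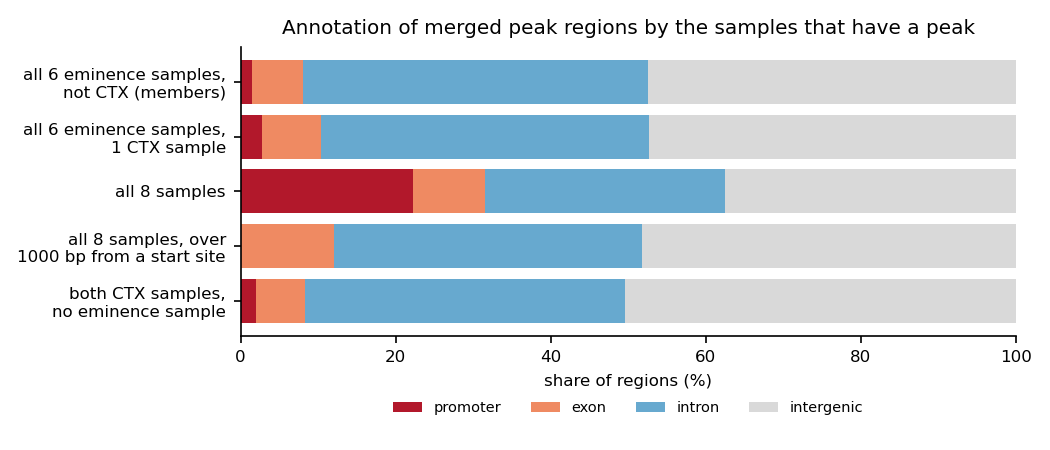
Share of merged regions (x axis, %) that were promoter (within 1000 bp of a start site), exon, intron or intergenic, for each class of regions by the samples that had a peak (y axis). Members are the top bar, with 1.53% promoters, while regions open in all 8 samples have 22.2%.

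The rule sits on a continuum of peak calls. Another 3117 regions had a peak in 5 eminence samples and no CTX sample, and of the 5616 regions with a peak in all 6 eminence samples and 1 CTX sample, 3014 had it in CTX replicate 1 only and 2602 in CTX replicate 2 only. Without CTX replicate 1 the rule would take 5382 regions, and without CTX replicate 2 it would take 4908. Leaving out MGE replicate 1 or LGE replicate 1, the eminence samples with the least peak length (105 and 85.5 Mb), gave 3977 and 3525. Of the 44 members with no count in at least 1 eminence sample, those with the lowest mean CPM lay nearest to Ptp4a3, Htra3 and Arhgap25. The peak called there was short, 10 bp in MGE replicate 1 and 1 bp in LGE replicate 1 at Ptp4a3, 5 bp in CGE replicate 1 at Htra3 and 2 bp in MGE replicate 1 at Arhgap25. Regions that just missed, nearest to Sox9, Ski and Tacc1, held 1 bp of a CTX peak. In all, 195 members had under 50 bp of peak in at least 1, and 2115 had at least 10 counts in each of the 6.

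Several short motifs were more frequent in members than in regions open everywhere, as a description with no test. The MEIS and PBX type motif TGACAG was in the central 300 bp of 36% of members, 30.3% of the regions open in all eminence samples and 1 CTX sample, 23.9% of the 52006 regions open in all 8 samples more than 1000 bp from a start site, and 22.3% of the regions open in CTX alone. The proneural E-box CAGCTG was in 28.7% of members and also of the regions open in all eminence samples and 1 CTX sample, 21.8% of the distal regions open everywhere and 19.7% of the CTX regions. SOX motifs (ACAATG) were in 22.5%, 16.7% and 16.8% of the same classes, and the POU octamer ATGCAAAT was in 7.01%, 3.03% and 2.13%. The regions open in the eminences and 1 CTX sample lay near members for both, with 21.1% and 6.61%. For the E-box CAGATG, of the type bound by NEUROD and NEUROG factors of glutamatergic neurons, the order was turned, with 23% of members, 24.8% of distal regions open everywhere and 29.8% of CTX regions. TAATTA, the core of many homeodomain sites, was in 15.2% of members but in 18% of CTX regions, and 11.8% of distal regions open everywhere. GC boxes (GGGCGG) were in 4.47% of members, 9.34% of distal regions open everywhere, 6.13% of regions open in the eminences and 1 CTX sample and 4.85% of CTX regions. Both strands were searched for each motif, and CAGCTG and TAATTA read the same on both.

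**Figure D2:**
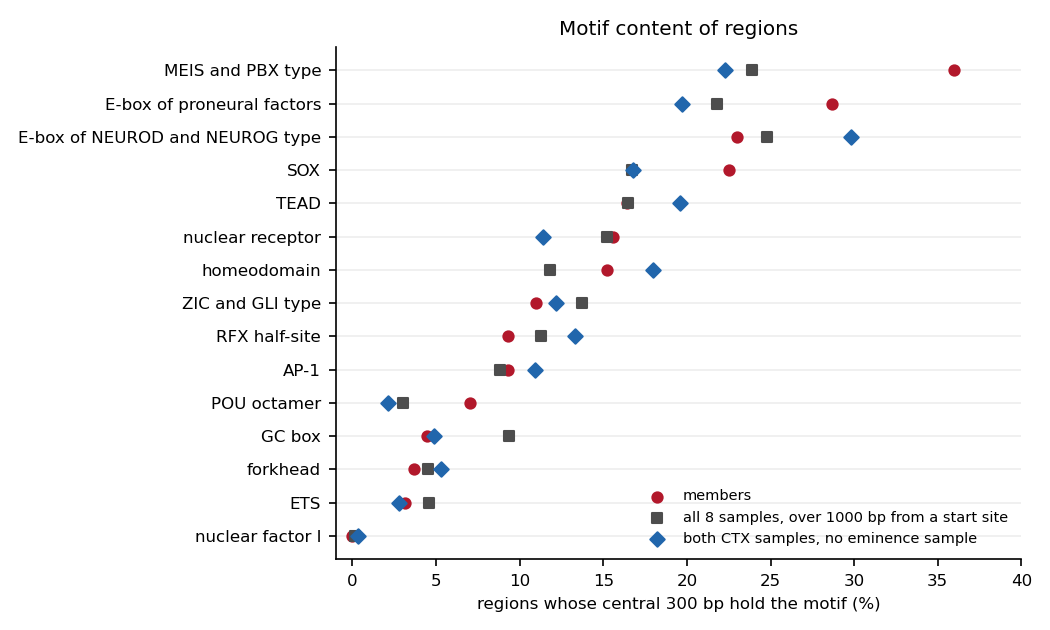
Share of regions (x axis, %) whose central 300 bp hold each of 15 motifs (y axis) in members, in regions open in all 8 samples more than 1000 bp from a start site, and in regions open in both CTX samples only. MEIS and PBX type motifs stand at 36% in members against 23.9% and 22.3%.

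Counts in members were a small part of each sample. They made up 0.466% of the counts in peaks in MGE replicate 1 and 0.656% in MGE replicate 2, 0.557% and 0.577% in LGE, and 0.539% and 0.587% in CGE, so the MGE replicates held both the lowest and the highest share. The median member had 1.5 and 2.12 CPM in the 2 MGE samples, 1.79 and 1.94 in LGE, and 1.85 and 2.03 in CGE, where CPM is relative to all counts in peaks on chromosomes 1 to 19. The median over members of the mean of the 6 samples was 2.02 CPM, against 5.45 for regions open in all 8 samples and 2.17 for those open in the eminences and 1 CTX sample. Replicates also differed in the length called as peak within members, with a median of 454 and 672 bp in MGE, 402 and 604 bp in LGE, and 575 and 706 bp in CGE. A count over a member grows with that length, so values from a fit that includes the covered length as an offset are given beside folds wherever they differ by more than 1.5 times or change the call. Across members, log2 CPM correlated at 0.76 between the MGE replicates, 0.82 between the LGE replicates and 0.85 between the CGE replicates (Pearson's r over 2282 members, which share libraries and are no replicates). Between eminences r was 0.60 to 0.65 for LGE with CGE samples and 0.20 to 0.39 for MGE with either, so the members ordered LGE and CGE samples alike and MGE samples apart.

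Most members had no other member within 100000 bp. Another member lay within 10000 bp of 124 of them (5.43%) and within 100000 bp of 632 (27.7%), with a median distance of 259212 bp to the nearest other member. Whether members lie closer together than evenly spread regions would was not tested. They were nearest to 1721 protein-coding genes, of which 1340 had 1 member, 381 had at least 2 and 38 at least 4. Robo1 and Robo2, neighbouring genes for Slit receptors of axon guidance, had the most, with 10 and 9 members, followed by the cell adhesion gene Lsamp with 7, the growth factor gene Nrg1 and the teneurin gene Tenm2 with 6 each, and Fam19a5, Tcerg1l, Enox1, Zfhx3 and Nrxn3 with 5 each. These numbers were not corrected for the length of a gene or of the intergenic stretches around it.

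Members lay near subpallial and GABAergic genes more often than regions in general did. The list of such genes was chosen with earlier results of these data known. Of 62 genes on the list with a start site on the chromosomes used, 26 were nearest to 47 members (2.06% of members), compared with 1.32% of all 74752 regions that had a peak in all 6 eminence samples. Within 50000 bp the shares were 1.01% and 0.516%. These included 2 members each at Dlx1 and Dlx6, homeodomain factors of the ventral telencephalon, 2 in Gad1 and 1 near Gad2, which encode the enzymes that make GABA, 2 each at Isl1, Ebf1 and Six3, 3 at Erbb4, the neuregulin receptor of migrating interneurons, and 5 at Zfhx3. Pallial and glutamatergic genes had 14 members (0.613%, against 0.637% of all regions), forebrain progenitor genes 6 (0.263% against 0.506%) and pan-neuronal genes 17 (0.745% against 0.471%). No set test was made of these shares.

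Merged regions at the promoters of the same genes mostly had a peak in cortex as well. Here every merged region that reached within 1000 bp of any start site of a gene was taken whole. A promoter peak or promoter CPM can therefore include accessible chromatin farther from the start site. Of the 1721 genes nearest to a member, 1493 (86.8%) had a promoter peak in both CTX samples and 1474 (85.6%) in all 6 eminence samples. For the 15901 genes nearest to any region with a peak in all eminence samples these shares were 87.4% and 86%. Promoter CPM was above both CTX samples in every eminence sample for 594 of the 1721 genes (34.5%), where the background over the 15901 genes was 29.9%, and below both for 38 (2.21% against 2.03%). Among the 26 subpallial genes with a member, all 26 had a promoter peak in both CTX samples, and 17 had every eminence sample above both CTX samples and none had every one below.

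Dlx1 promoter CPM was 90 and 105 in CTX, 518 and 424 in MGE, 333 and 379 in LGE, and 266 and 310 in CGE. Gad1, which encodes a glutamate decarboxylase, had 49.2 and 55.2 in CTX, 151 and 115 in MGE, 101 and 97.4 in LGE, and 95.6 and 98.4 in CGE. For Six3, a homeobox factor of the ventral forebrain, the values were 35.9 and 66.4 in CTX against 270 and 203 in MGE, 196 and 229 in LGE, and 173 and 206 in CGE. At all 3 promoters both CTX samples lay below every eminence sample and well above 0. LGE and CGE overlapped at Gad1, where MGE lay above both, and all eminences overlapped at Six3. Ebf1 was closer, with 31.1 and 47.8 in CTX and 49.8 to 59.4 in the eminences. These promoter values are sums over whole merged regions and are not corrected for the length called as peak. That length was 20727 to 25947 bp at Dlx1 and 12364 to 25341 bp at Six3 over the samples, so the values are not those of the promoters alone.

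The most accessible members were each open at several times the median member. The member nearest to Rnf32 (chr5:28891779-28893669, intergenic, 302323 bp from that start site) had 20.2 and 26.5 CPM in MGE, 13.5 and 15 in LGE, and 8.34 and 9.41 in CGE. The member nearest to Castor2 (chr5:133662301-133664199, intergenic, 435512 bp away) had 18.1 and 24.4 in MGE, 10.6 and 11.3 in LGE, and 9.86 and 13 in CGE. In both, every MGE sample lay above every other sample. Nrg1, which encodes a neuregulin that guides interneurons through Erbb4, holds a member in an intron (chr8:31901149-31902353) with 5.57 and 10.6 CPM in MGE, 18 and 17.4 in LGE, and 14.6 and 16.6 in CGE, and here MGE was lowest. A member over an exon of Mrps35, a mitochondrial ribosomal protein gene (chr6:147053575-147056008), had 10.5 and 8.89 in MGE, 20.2 and 14.47 in LGE, and 16.7 and 11.5 in CGE. The Ino80d member (chr1:62913918-62915218) was nearly even, from 9.31 to 14.2 CPM. Of these 5, the fits below called Rnf32 higher in MGE than in CGE, with a log2 fold of 1.42 (edgeR adjusted p = 0.00895, and adjusted p = 0.061 without CGE replicate 1). They also called Castor2 higher in MGE than in LGE, with a log2 fold of 0.99 (adjusted p = 0.0405), a call lost without MGE replicate 2 (adjusted p = 0.109), LGE replicate 1 (adjusted p = 0.158) or LGE replicate 2 (adjusted p = 0.0909) and in a fit over regions with a peak in any eminence sample (adjusted p = 0.119).

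**Figure D3:**
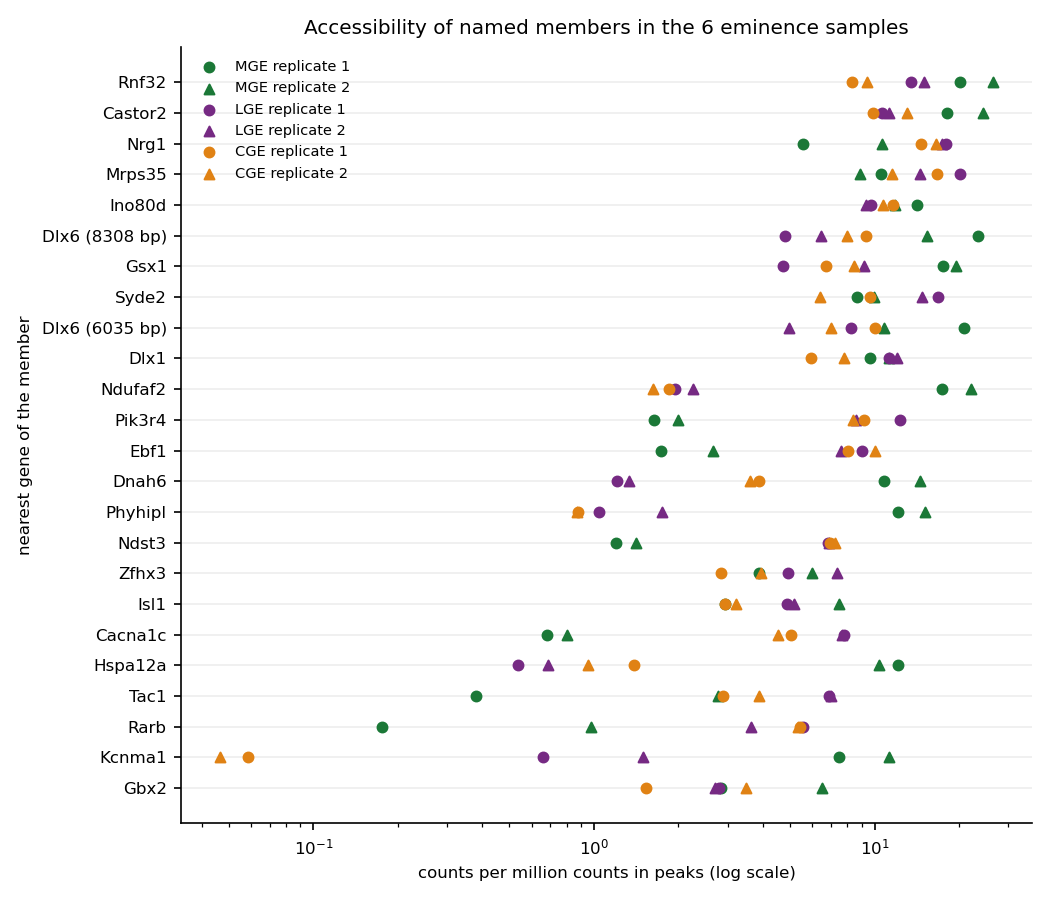
CPM relative to counts in peaks (x axis, log scale) of members named for their calls, their level or a nearby subpallial gene (y axis, nearest gene, with the width where a gene has more than 1 member), 1 point per eminence sample. MGE samples stand apart to the right at Ndufaf2, Phyhipl and Hspa12a and to the left at Ndst3, Pik3r4, Ebf1 and Cacna1c, while LGE and CGE points lie close together in most members.

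The contrasts among eminences were not used to choose members, and were tested with edgeR on the 6 eminence samples over all 74752 regions with a peak in each of them. MGE differed from LGE at 335 members (14.7%), where the share over all regions tested was 11.1%. Of these 149 (6.53%, against 5.08% of all regions) were higher in MGE and 186 (8.15%, against 6.06%) were higher in LGE, with p adjusted after Benjamini and Hochberg and called up to 0.05. Median folds among the called members were 3.96 and 3.63. MGE differed from CGE at 298 members (13.1%, background 9.64%), with 141 higher in MGE (6.18%, against 3.76%) and 157 higher in CGE (6.88%, against 5.88%). Both contrasts share the MGE samples.

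The number and the balance of these calls moved with the settings. With the covered length as an offset, 258 members (11.3%, against 7.4% of all regions) were called between MGE and LGE and 213 (9.33%, against 5.85%) between MGE and CGE. The share of these calls higher in MGE was then 26.7% in place of 44.5% and 67.1% in place of 47.3%, while the median of all regions shifted to -0.18 and 0.10 (log2). Calls between MGE and LGE ranged from 161 (7.06%, against 4.77%) without LGE replicate 1 to 512 (22.4%, against 14.3%) without MGE replicate 2. Those between MGE and CGE ranged from 74 (3.24%, against 2.47%) without CGE replicate 2 and 83 (3.64%, against 2.56%) without CGE replicate 1 to 482 (21.1%, against 14.2%) without MGE replicate 2. The share higher in MGE turned with single libraries, from 19.7% without MGE replicate 2 to 64.6% without LGE replicate 2 against LGE (55.9% without MGE replicate 1), and from 19.5% without MGE replicate 2 to 67.6% without CGE replicate 2 against CGE (61.1% without MGE replicate 1). A further fit took regions with a peak in any eminence sample, of which 149248 passed the filter on low counts and were tested. These include regions with no called peak, and so no counts, in some eminence samples. This fit called 99 members (4.34%, against 3.97% of all regions tested) between MGE and LGE. Between MGE and CGE it called 56 (2.45%, against 2.51%). Members were thus called about as often as the regions tested there. In this fit 48 of the 79 called folds of members named here or nearest to a gene of the lists were not past the threshold.

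LGE and CGE were not separated by any member in the same fit. edgeR called 0 members and 0% of the 74752 regions, with 395 members (17.3%) and 12.46% of all regions at an unadjusted p under 0.05. DESeq2 called 129 members (5.65%, against 4.15% of all regions), 63 of them higher in LGE. The smallest adjusted p of a member was 0.0735, at an intergenic region nearest to the potassium channel gene Kcnh8 (chr17:52479076-52480900). Its CPM was 2.91 and 3.26 in MGE, 1.16 and 0.837 in LGE, and 8.45 and 9.97 in CGE, so the 3 eminences did not overlap. It was called as peak over 266 and 421 bp in LGE against 1671 and 1825 bp in CGE, and with the covered-length offset the log2 fold of LGE over CGE went from -3.21 to -0.74 and that of MGE over LGE from 1.66 to -0.22 (adjusted p = 0.793). With the covered length as an offset 57 members (2.5%, against 1.73%) were called, all higher in LGE, where the median of all regions was itself 0.27, and without LGE replicate 2 edgeR called 69 (3.02%, against 0.886%), of which 2 were higher in LGE.

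**Figure D4:**
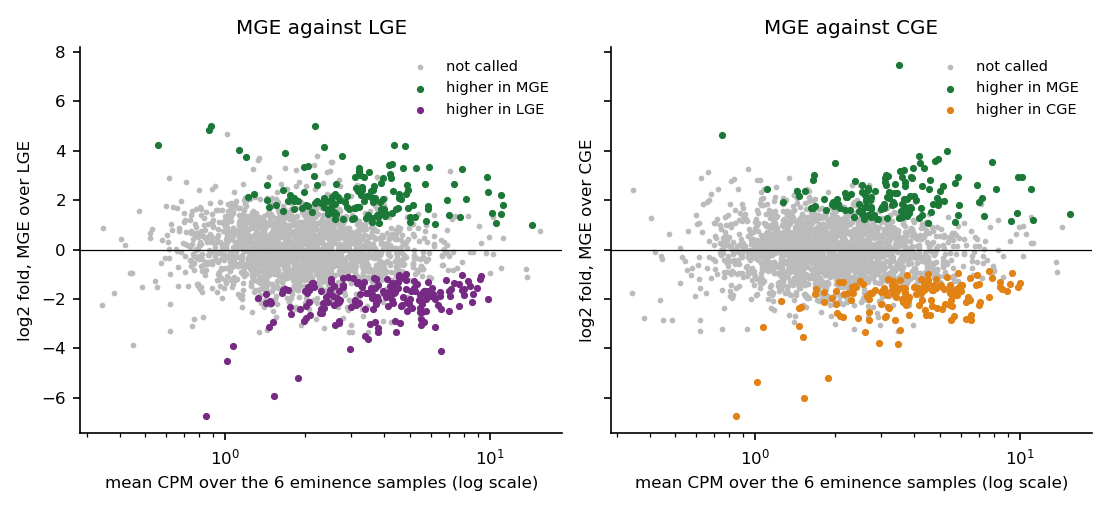
Log2 fold of MGE over LGE (left) and of MGE over CGE (right) on the y axis against the mean CPM of each member over the 6 eminence samples (x axis, log scale), 1 point per member. The 149 and 141 members called higher in MGE and the 186 and 157 called higher in LGE or CGE are coloured, and calls run over the whole range of levels.

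Members higher in MGE than in both other eminences were led by intronic and intergenic regions whose nearest genes are not on the subpallial list. In the intron of Ndufaf2, an assembly factor of respiratory complex I (chr13:108134443-108136425), CPM was 17.4 and 22 in MGE, 1.94 and 2.26 in LGE, and 1.85 and 1.63 in CGE. The log2 fold was 3.26 ± 0.24 (SE) over LGE (edgeR adjusted p = 0.00193, 1.51 with the covered-length offset) and 3.54 ± 0.25 over CGE (adjusted p = 0.00261, 1.89 with the offset). All LGE and CGE samples were near the median of members, and the MGE samples were not far below the highest member of their sample (23.4 and 27.1 CPM). The intron of Hspa12a, an Hsp70 family gene (chr19:58855596-58856904), had 12.1 and 10.4 CPM in MGE, 0.535 and 0.685 in LGE, and 1.39 and 0.953 in CGE, with log2 folds of 4.24 ± 0.31 (adjusted p = 0.00191, offset 1.76) and 3.30 ± 0.30 (adjusted p = 0.00301, offset 2.12). An intergenic region nearest to Phyhipl (chr10:70806425-70807574, 150460 bp away) had 12.1 and 15.1 CPM in MGE and 0.872 to 1.75 elsewhere, with log2 folds of 3.32 ± 0.33 (adjusted p = 0.00259, offset 2.16) and 3.99 ± 0.35 (adjusted p = 0.00301, offset 2.61). MGE samples stood clear of the other 4 in all 3 of these members.

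Other MGE members differed in how CGE behaved. In an intron of Dnah6, a dynein heavy chain gene (chr6:73166303-73167868), CPM was 10.8 and 14.52 in MGE, 1.21 and 1.33 in LGE, and 3.88 and 3.61 in CGE, which lay between them. The log2 fold was 3.35 ± 0.26 over LGE (edgeR adjusted p = 0.00206, offset 1.40) and 1.79 ± 0.24 over CGE (adjusted p = 0.0065, and 0.0508 without CGE replicate 2). In an intron of Kcnma1, the gene of a large-conductance potassium channel (chr14:23570984-23572098), CGE was the lowest, with 0.0585 and 0.0465 CPM against 7.48 and 11.3 in MGE and 0.659 and 1.5 in LGE. Only 23 and 56 bp of this member were called as peak in the CGE samples, and the log2 fold over CGE of 7.49 ± 0.61 (adjusted p = 0.00278) was 2.76 with the offset.

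Members lower in MGE than in both other eminences included 1 of the 35 promoters. That region (chr9:105658859-105660583), which reached to 470 bp from the start site of Pik3r4, a regulatory subunit of class III PI3 kinase, had 1.64 and 1.99 CPM in MGE, 12.3 and 8.6 in LGE, and 9.14 and 8.39 in CGE. Its log2 fold was -2.49 ± 0.25 against LGE (edgeR adjusted p = 0.00257, offset -1.78) and -2.24 ± 0.25 against CGE (adjusted p = 0.00391, offset -1.06). In an intron of Ndst3, a heparan sulfate modifying enzyme (chr3:123555091-123555895), CPM was 1.2 and 1.41 in MGE, 6.82 and 6.9 in LGE, and 6.92 and 7.22 in CGE, with log2 folds of -2.37 ± 0.24 (adjusted p = 0.00263, offset -1.72) and -2.41 ± 0.24 (adjusted p = 0.00331, offset -1.58). LGE and CGE samples did not differ there beyond the range from 6.82 to 7.22 CPM. An intron of the calcium channel gene Cacna1c (chr6:118843367-118844350) had 0.682 and 0.804 CPM in MGE, 7.76 and 7.66 in LGE, and 5.05 and 4.52 in CGE. MGE was called lower than LGE (log2 fold -3.35 ± 0.25, adjusted p = 0.00195, offset -1.70) and than CGE (-2.65 ± 0.25, adjusted p = 0.00301), the latter call ending with the offset (-0.94, adjusted p = 0.0548).

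Of the 47 members nearest to subpallial genes, 8 (17%) differed between MGE and LGE and 6 (12.8%) between MGE and CGE, where the shares over all regions were 11.1% and 9.64%. Between MGE and LGE 5 were called higher in MGE (Gad2, 2 at Gad1, Gsx1 and Dlx6) and 3 lower (Zfhx3, Ebf1 and Rarb), and between MGE and CGE 3 were called higher (Erbb4, Dlx1 and Dlx6) and 3 lower (Ebf1, Nr2f1 and Rarb). None was called between LGE and CGE. Of the 8 calls against LGE 2 held without any single library, those at Ebf1 and Dlx6, and of the 6 against CGE 1, at Ebf1. With the covered-length offset 3 of the 8 and 3 of the 6 were past the threshold, and these were the calls lower in MGE. Every call higher in MGE was lost with it. Among these were Erbb4 (0.54, edgeR adjusted p = 0.571) and Dlx1 (0.83, edgeR adjusted p = 0.113) against CGE. The median log2 fold of the 47 was 0.05 for MGE over LGE, 0.45 for MGE over CGE and -0.05 for LGE over CGE, where the medians of all regions were -0.02, -0.01 and 0.01. Most of the 47 were thus open in the 3 eminences at levels that were not told apart with 2 samples each.

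At Dlx6, whose product drives GABAergic differentiation, both members were wide intergenic stretches, 25448 and 34660 bp from its start site. The wider (chr6:6829579-6837886, 8308 bp) had 23.4 and 15.4 CPM in MGE, 4.8 and 6.43 in LGE, and 9.32 and 7.95 in CGE. It was called as peak over 7503 and 7540 bp in MGE, 1466 and 3084 bp in LGE, and 4483 and 4869 bp in CGE. The log2 fold of MGE over LGE was 1.82 ± 0.28 (edgeR adjusted p = 0.00778) and -0.01 with the covered-length offset (adjusted p = 0.994), so the level per kilobase called as peak was about the same. Over CGE the log2 fold was 1.21 ± 0.27 (adjusted p = 0.0322), a call lost with the offset (0.52, adjusted p = 0.301), with the replicate block (adjusted p = 0.0535), without MGE replicate 1 (adjusted p = 0.107), CGE replicate 1 (adjusted p = 0.128) or CGE replicate 2 (adjusted p = 0.158), and in the fit over regions with a peak in any eminence sample (adjusted p = 0.0972). The other Dlx6 member (chr6:6822640-6828674) had 20.8 and 10.8 CPM in MGE, 8.25 and 4.96 in LGE, and 10 and 7.01 in CGE, and MGE over LGE missed the threshold (adjusted p = 0.0588).

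The Gsx1 member (chr5:147222297-147225225, 33601 bp from the start site) lies near a homeodomain gene of eminence progenitors. It had 17.6 and 19.5 CPM in MGE, 4.73 and 9.19 in LGE, and 6.69 and 8.45 in CGE. MGE samples lay above the other 4. The log2 fold over LGE of 1.43 ± 0.35 (edgeR adjusted p = 0.0372) was 0.60 with the covered-length offset (adjusted p = 0.161). It was not past the threshold without MGE replicate 1 (adjusted p = 0.0936), MGE replicate 2 (adjusted p = 0.0945), LGE replicate 1 (adjusted p = 0.104) or CGE replicate 2 (adjusted p = 0.0511), or over regions with a peak in any eminence sample (adjusted p = 0.136), and was 2.05 without LGE replicate 2.

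Ebf1, a helix-loop-helix transcription factor gene, holds a member in an intron (chr11:44887165-44888247) with 1.74 and 2.65 CPM in MGE, 9.05 and 7.57 in LGE, and 8.04 and 10 in CGE. The log2 fold was -1.89 ± 0.29 against LGE (edgeR adjusted p = 0.00774) and -2.02 ± 0.29 against CGE (adjusted p = 0.00742, offset -1.09), and both calls were past the threshold under every alternative tried. Among GABAergic neuron-like, progenitor-like and glutamatergic neuron-like nuclei (clustered as described below), this member was highest in the glutamatergic class in LGE and CGE. It had 10.7 and 13.7 CPM there in LGE and 10.3 and 11.8 in CGE, against 3.97 to 5.76 in GABAergic neuron-like nuclei. In each LGE and CGE sample, however, most counts of this member lay outside these classes. Its level in unnamed nuclei was not worked out and may be higher than in any of them. The glutamatergic neuron-like class had 16 and 61 nuclei in MGE and 515 to 1204 in each other sample. Neither its part in the calls nor that of unnamed nuclei was tested. Within GABAergic neuron-like nuclei the member had 2.79 and 4.88 CPM in MGE. By contrast, the Dlx1 member whose sequence is shown above (chr2:71512031-71513065) had 9.66 and 11.3 CPM in MGE, 11.3 and 12 in LGE, and 5.95 and 7.79 in CGE. It was called in no contrast.

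The Gad2 member (chr2:22694397-22696000, intergenic) was singled out after its values were seen, as were those in Gad1. It had 4.73 and 2.77 CPM in MGE, 0.782 and 1.01 in LGE, and 2.68 and 2.17 in CGE, so that LGE was lowest. The log2 fold over LGE was 2.09 ± 0.39 (edgeR adjusted p = 0.0152), but -0.01 with the covered-length offset (adjusted p = 0.992) and not past the threshold without MGE replicate 1 (adjusted p = 0.0572) or LGE replicate 1 (adjusted p = 0.0703) or over regions with a peak in any eminence sample (adjusted p = 0.0763). In Gad1 a member (chr2:70571252-70572807) had 4.61 and 2.04 CPM in MGE, 0.379 and 0.913 in LGE, and 0.807 and 1.16 in CGE. The next (chr2:70573434-70574359) had 2.44 and 2.29 in MGE, 0.519 and 0.494 in LGE, and 0.795 and 1.22 in CGE. Both were called higher in MGE than in LGE (adjusted p = 0.0476 and 0.0236), and with the offset their log2 folds were -0.21 (adjusted p = 0.844) and 0.14 (adjusted p = 0.898). The calls ended over regions with a peak in any eminence sample (adjusted p = 0.208 and 0.164), without MGE replicate 1 (adjusted p = 0.234 and 0.0745) or LGE replicate 1 (adjusted p = 0.148 and 0.0804), that of the former also with the replicate block (adjusted p = 0.0765), with TMM over distal regions (adjusted p = 0.0533), without CGE replicate 1 (adjusted p = 0.0579) or CGE replicate 2 (adjusted p = 0.0673) and that of the latter without LGE replicate 2 (adjusted p = 0.0637). The Gad2 member was called as peak over 1604 and 1492 bp in MGE against 249 and 534 bp in LGE, so MGE samples held more counts over a longer called peak.

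Pan-neuronal genes had 17 members. Of these 2 were called higher in MGE and 4 lower than in LGE, and 1 higher and 4 lower than in CGE (35.3% and 29.4%, against 11.1% and 9.64% of all regions). With the covered-length offset 3 of these 6 calls and 1 of these 5 were past the threshold. A region nearest to Stmn2, a neuronal stathmin gene (chr3:8490920-8491754), had 0.572 and 0.844 CPM in MGE, 4.35 and 4.12 in LGE, and 2.32 and 1.78 in CGE, with a log2 fold of -2.56 ± 0.35 against LGE (edgeR adjusted p = 0.00554, offset -1.36). It was chosen after its values were seen, and is the 1 of the 6 calls against LGE that held without any single library, while none of the 5 against CGE did. A region nearest to Syt1, the synaptic calcium sensor (chr10:109322283-109323328), went the other way, with 7.04 and 11.7 CPM in MGE, 3.37 and 4.22 in LGE, and 1.75 and 1.99 in CGE. Its log2 fold over CGE was 2.35 ± 0.33 (adjusted p = 0.0069, 1.72 with the offset, and adjusted p = 0.0504 without CGE replicate 1).

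Pallial genes had 14 members and progenitor genes 6. At Mef2c, a neuronal transcription factor gene, 1 member (chr13:83483754-83485444) had 3.65 and 7.32 CPM in MGE, 13.5 and 13.6 in LGE, and 6.01 and 5.47 in CGE. At Wnt2b, a Wnt ligand gene, 1 (chr3:104935802-104937006) had 5.47 and 10.3 in MGE, 6.26 and 6.81 in LGE, and 2.77 and 3.32 in CGE. Mef2c was called lower in MGE than in LGE (edgeR adjusted p = 0.0412) and Wnt2b higher in MGE than in CGE (adjusted p = 0.0399), and of the progenitor genes Mki67 and Ednrb were called lower in MGE than in CGE (adjusted p = 0.0357 and 0.00985). The pallial calls were 7.14% of the 14 members in each contrast (background 11.1% and 9.64%), and the progenitor calls were 0 against LGE and 33.3% of 6 against CGE. None of these 4 calls held without each single library. The highest adjusted p was 0.116 for Mef2c without LGE replicate 1, 0.199 for Wnt2b without CGE replicate 1, 0.187 for Mki67 without CGE replicate 2 and 0.0773 for Ednrb without CGE replicate 1, and Ednrb was also lost with the covered-length offset (adjusted p = 0.301).

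At genes with several members some were called and others were not. Robo1 had 10 members, the outermost starting at positions 71451033 and 73217469 of chromosome 16. Of these an intronic region (chr16:72951553-72952697) had 2.52 and 3.47 CPM in MGE, 15.2 and 11.6 in LGE, and 8.01 and 10.5 in CGE (log2 fold against LGE -2.13 ± 0.28, edgeR adjusted p = 0.00476), so that MGE was lowest, while another intronic region (chr16:72778388-72779154) had 2.38 and 2.78 in MGE and 1.09 to 1.6 elsewhere and was not called. One more Robo1 member, starting at 71711366, was called lower in MGE than in CGE (-2.21, adjusted p = 0.013), a call lost with the offset (-0.87, adjusted p = 0.0563), without CGE replicate 2 (adjusted p = 0.0762) and over regions with a peak in any eminence sample (adjusted p = 0.0777), and -2.80 without MGE replicate 2. In glutamatergic neuron-like nuclei, a class nearly absent from MGE that is described below, it had 17 and 24.1 CPM in CGE, against 14.3 and 12.7 in GABAergic neuron-like nuclei. Within Nrg1 an intronic member (chr8:31909255-31910154) had 1.2 and 2.24 CPM in MGE, 9.29 and 8.93 in LGE, and 5.31 and 5.74 in CGE (log2 fold against LGE -2.38 ± 0.32, adjusted p = 0.00549, offset -1.63). Another in the same gene (chr8:32067713-32069653) had 4.37 and 7.17 in MGE, 0.379 and 1.18 in LGE, and 3.19 and 3.72 in CGE. Its log2 fold over LGE of 2.92 ± 0.56 (adjusted p = 0.0169) was 2.33 without LGE replicate 1 and 4.00 without LGE replicate 2. The call was lost with the offset (0.67, adjusted p = 0.257), without MGE replicate 2 (adjusted p = 0.0537) and in the fit over regions with a peak in any eminence sample (adjusted p = 0.0942). An intergenic Nrg1 member starting at 33085295 was called lower in MGE than in LGE (-1.51, adjusted p = 0.0412), a call lost under 7 of the 13 alternatives, among them the offset (-0.85, adjusted p = 0.121). Robo2 had 9 members, of which 1 (chr16:74032023-74033028) was called higher in MGE than in CGE (log2 fold 1.95 ± 0.40, adjusted p = 0.0229, lost without CGE replicate 1 at adjusted p = 0.129 or CGE replicate 2 at adjusted p = 0.0929 and over regions with a peak in any eminence sample at adjusted p = 0.11, and 1.24 without MGE replicate 2) and none was called against LGE. The 5 members at Nrxn3 were called in no contrast.

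Promoter members were few. All 35 belonged to different genes, and 15 held the start site itself. After Pik3r4, those with the highest mean level lay at Lrrc71 (9.89 and 4.8 CPM in MGE, 4.11 and 2.8 in LGE, 5.27 and 3.28 in CGE), Dync1i1, a dynein intermediate chain gene (4.58 and 6.88, 5.41 and 4.51, 3.61 and 3.32), 2010111I01Rik and Gsg1. Pik3r4 was the one of these 5 that was called in a contrast.

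Nuclei of the 6 eminence samples were clustered on the regions open in all 8 samples, which hold no member, and clusters were named from marker lists. Naming used all peaks over the gene body and 2000 bp upstream, which include members in marker genes such as Ebf1 and Gad1. Names and members are therefore not fully separate at such genes. Clusters 1 and 4 were GABAergic neuron-like, the former mostly from MGE with Lhx6, Dlx5, Dlx6 and Slc32a1 among its leading genes and the latter mostly from LGE and CGE. Progenitor-like nuclei formed cluster 0 (MGE), cluster 2 (LGE and CGE, replicate 1) and cluster 3 (LGE and CGE, replicate 2), and cluster 5 was glutamatergic neuron-like, with 16 and 61 nuclei in MGE and 515 to 1204 in each other sample. Of 14 measured progenitor markers 6, 8 and 9 were raised in clusters 0, 2 and 3, none of them among the 10 leading genes. Clusters 1 and 4 had 9 and 8 of 13 GABAergic markers raised, and none was among the leading genes of cluster 4. Clusters 6, 7 and 8 met no list's rule and were not named. Different clusters therefore hold most GABAergic neuron-like and most progenitor-like nuclei in MGE and in the other eminences, although cluster 1 also held 182 and 250 nuclei of CGE.

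Members took a larger share of the counts in GABAergic neuron-like nuclei than in progenitor-like nuclei in every sample. The share was 0.559% and 0.807% in MGE, 0.766% and 0.82% in LGE, and 0.794% and 0.774% in CGE, against 0.43% and 0.604%, 0.339% and 0.39%, and 0.367% and 0.393% in progenitor-like nuclei. It was 0.356% to 0.403% in glutamatergic neuron-like nuclei of LGE and CGE and 0.254% to 0.442% in endothelial-like nuclei. The highest share was in the unnamed cluster 6, at 1.07% to 1.91%. This cluster held 2517 nuclei, 84 and 66 of them in MGE, and had 5 of 13 measured GABAergic markers raised and no progenitor or glutamatergic marker, with a list mean below the limit set for naming (log2 fold 0.189). The unnamed cluster 8, mostly from MGE (600 and 510 nuclei), had 4 of 13 GABAergic and 2 of 12 glutamatergic markers raised. Its share was 0.654% and 0.951% in MGE, above the GABAergic neuron-like share of each MGE sample. Cluster 7, whose median depth was 2.69 times that of its samples and which had no marker of any list raised, had 0.569% to 0.664% in LGE and CGE. It held 3 and 3 nuclei in MGE and 329 to 780 in each LGE and CGE sample, and so was nearly absent from MGE. Its part in the contrasts among eminences, which sum all nuclei, was not tested. Median counts per nucleus were 11032 to 13677 in GABAergic neuron-like and 14352 to 26172 in progenitor-like nuclei, and the part of depth in these shares was not tested.

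**Figure D5:**
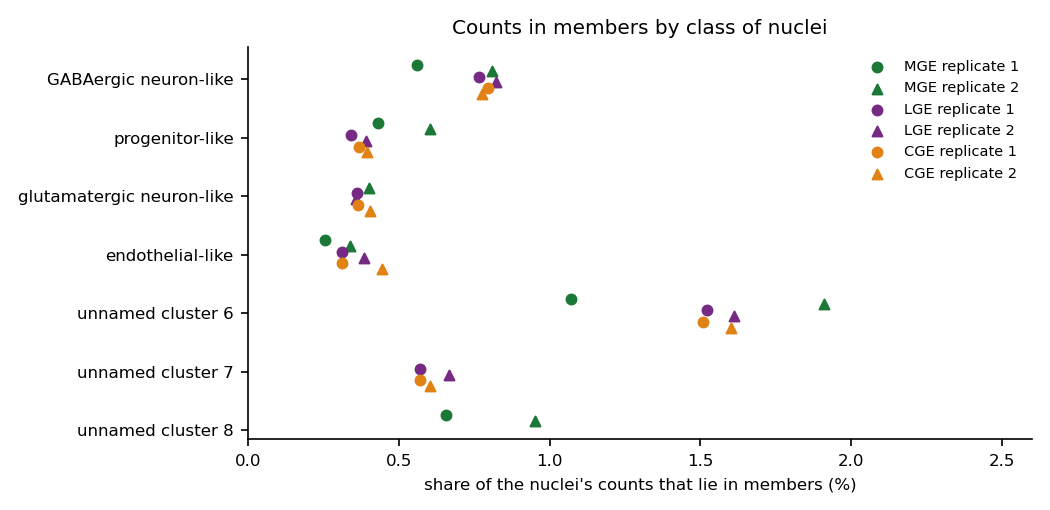
Share of the counts of a class of nuclei that lie in members (x axis, %) by class or unnamed cluster (y axis), 1 point per eminence sample, for groups with at least 20 nuclei. Values are relative to counts in the 74752 regions with a peak in all eminence samples, and cluster 6 stands apart at 1.07% to 1.91%.

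Member by member, GABAergic neuron-like nuclei had the higher CPM in all 6 samples at 966 members (42.3%), against 27.5% of all 74752 regions, and the lower CPM in all 6 at 424 (18.6%, against 22.6%). The median log2 ratio was 0.57 over members and 0.07 over all regions, with a pseudocount of 0.5 CPM. In LGE and CGE alone, 1221 members (53.5%, background 34.2%) were higher in all 4 samples and 465 (20.4%, background 27.4%) lower. Against glutamatergic neuron-like nuclei in those 4 samples, 1060 members (46.5%, against 22%) were higher in GABAergic neuron-like nuclei and 184 (8.06%, against 25.7%) lower, with medians of 0.51 and -0.03. These are descriptions, as class and member choice share the same nuclei. The rule also left out every region with a peak in cortex, the tissue that produces glutamatergic neurons. Lower counts of members in glutamatergic neuron-like nuclei, here and in the shares above, are therefore not independent of the rule.

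The 2 classes divided the members named above. At Castor2 the mean over samples was 46.1 CPM in GABAergic neuron-like and 5.54 in progenitor-like nuclei (log2 ratio 1.93 to 3.98 over the 6 samples), at the wider Dlx6 member 26.8 and 4.84, at Dlx1 23.2 and 2.8 and at Nrg1 32.1 and 3.05. These members were higher in GABAergic neuron-like nuclei in each sample. The largest mean ratios among members at or above the median level were at Nova1, a neuronal splicing factor gene (3.35), Otud7a (3.33), Castor2 (3.30) and Cwc22 (3.23). Gsx1 went the other way, with 7.79 CPM in GABAergic neuron-like and 17.3 in progenitor-like nuclei (mean log2 ratio -1.01). At the other end were the members nearest to Khdrbs3 (-3.20), Cdkal1 (-2.94), Cdv3 (-2.83) and Pomgnt2 (-2.80). The Pomgnt2 member (chr9:121979019-121980486, over an exon of Fam198a) had 19.8 and 24.3 CPM in MGE, 4.73 and 4.23 in LGE, and 3.8 and 2.1 in CGE, and 1.67 CPM in GABAergic neuron-like against 17.1 in progenitor-like nuclei. MGE was called higher than LGE (log2 fold 2.33 ± 0.28, edgeR adjusted p = 0.00378, offset 1.51) and than CGE (2.95 ± 0.28, adjusted p = 0.00308, offset 2.26) there. Khdrbs3 (chr15:69349782-69351038) had 14.49 and 26.2 CPM in MGE, 7.62 and 7.48 in LGE, and 3.47 and 2.06 in CGE, with a log2 fold over CGE of 2.93 ± 0.35 (adjusted p = 0.00462, offset 2.16).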

How the data were processed

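Single-nucleus ATAC-seq files of 8 samples were used: for each sample, the peak list and the raw count matrix (peaks by nuclear barcodes) deposited by the authors. Per the submitters' processing notes, Cell Ranger ATAC 1.2.0 and GRCm38 (mm10) were used, and peaks on chromosomes 1 to 19 end within the GRCm38 lengths. Peaks had been called separately in each sample. The deposited motif counts were not used here. How barcodes were filtered is not given in the sources used. Every deposited barcode was kept. No doublet caller was run.

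Peaks were merged over the 8 samples, and the counts of all nuclei were added up per region and sample. Genes were protein-coding genes of GENCODE M21. A promoter region lay within 1000 bp of a start site. Motifs were searched in the central 300 bp. Contrasts were tested with edgeR 4.0.16 in R 4.3.3 (glmQLFit, glmQLFTest, TMM scaling, filterByExpr, which removed none of the 74752 regions), with 3 groups of 2 samples sharing an estimate of the spread and Benjamini-Hochberg adjustment over all regions tested. DESeq2 1.42.0 was an alternative. The test was also run on simulated counts with a fixed spread and no differences between samples in called peak length. That run therefore does not show how the test behaves on these data. CTX samples were left out of the fit, because regions without a CTX peak have no counts there.

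Nuclei were clustered with Python 3.11.15, scikit-learn 1.9.0 and leidenalg 0.10.2 (TF-IDF scaled by 10000, 30 components without the first, 20 neighbours, resolution 0.5). A class needed at least 3 markers at 10 CPM or more with a log2 fold above 0.5, and a list mean of at least 0.25.

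Members, gene lists, motifs and the rule for naming clusters were chosen with earlier results of these data known. Members named individually were, per contrast, up to 3 called in each direction by adjusted p, then the 8 with the highest mean, up to 12 nearest to subpallial genes and 5 nearest to each other list, those of the 10 genes with most members, the 3 widest, 5 promoters, 4 at each end of the class ratio, and 3 on either side of the rule's edge. A member that this rule also takes is not reported here.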

Additional observations from a re-analysis of the deposited data

Results flagged for a closer look

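At 7 named members the log2 ratio of GABAergic neuron-like to progenitor-like CPM was negative in both MGE samples and positive in both samples of another eminence. Over all 2282 members this pattern was found at 158 (6.92%) for MGE with LGE and 131 (5.74%) for MGE with CGE, against 5.01% and 3.91% of all 74752 regions. The differences between eminences were not tested, and different clusters hold most nuclei of both classes in MGE and in LGE and CGE. At the Ino80d member (chromosome 1, start 62913918) the ratio was -0.77 and -0.80 in MGE, 2.79 and 1.85 in LGE, and 1.37 and 0.26 in CGE, so that the MGE mean minus the LGE mean was -3.11 and minus the CGE mean was -1.60. The summed CPM of this member was nearly even over the 6 samples, from 9.31 to 14.2. At the Robo2 member starting at 74032023 on chromosome 16 the differences were -2.26 and -2.16, with -0.75 and -1.39 in MGE. At the Nr4a2 member, nearest to an orphan nuclear receptor gene, they were -2.08 and -2.19, with -0.43 and -0.13 in MGE and 2.24 and 1.37 in LGE. The promoter member at Dync1i1 differed by -1.67 from LGE and -1.60 from CGE, with -0.20 and -0.43 in MGE.

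The Lsamp member starting at 42152602 differed by -1.09 from LGE only, the Robo2 member starting at 74029670 by -0.96 from LGE and -0.66 from CGE, and the Enox1 member starting at 77486944 by -0.40 and -0.72. The opposite pattern was seen at none of the 114 named members and, over all members, at 30 (1.31%, against 4.87% of all regions) for LGE and 33 (1.45%, against 3.51%) for CGE. With 2 samples in each eminence, single samples far from the rest of their group were not looked for.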

How the results depend on the processing

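The number of members was 2270 with intervals up to 100 bp apart joined, 2179 with no CTX peak within 500 bp, 2283 with peaks merged over the eminence samples only and 1606 with at least 200 bp of peak in each, and ranged from 2308 to 5382 when 1 sample was left out. Members called between MGE and LGE were 99 over regions with a peak in any eminence sample and 541 by DESeq2 (23.7%, against 17.5% of all regions), and 161 to 512 with 1 sample left out. Between MGE and CGE these were 56, 496 (21.7%, against 16.2%) and 74 to 482. Between LGE and CGE the covered-length offset gave 57, DESeq2 129 and leaving out 1 sample 0 to 69. RLE scaling, TMM over distal regions and no filter on low counts moved no count by over 1.5 times. With a replicate block the counts were 367 (16.1%, against 11.5% of all regions), 314 (13.8%, against 9.83%) and 0. Same-numbered samples had deviations correlated at 0.106 for MGE with LGE, -0.003 for MGE with CGE and 0.427 for LGE with CGE. The main fit did not pair samples by number. LGE and CGE samples nevertheless varied together by number, as did odd matrix entries in every region and the progenitor-like clusters of LGE and CGE. A difference between samples numbered 1 and 2 is thus not taken out of the main fit. Start sites within 50000 bp only left 23 members near subpallial, 6 near pallial, 0 near progenitor and 10 near pan-neuronal genes. The 966 members higher in GABAergic neuron-like nuclei were 725 at resolution 1.0 (31.8%, against 23.2% of all regions). At that resolution a cluster with 1158 nuclei of LGE replicate 1 and 695 of CGE replicate 1, whose best list was GABAergic, was not named. Without nuclei of over 2 times the sample median 974 were higher (42.7%, against 27.1%). With 1 sample left out 999 to 1073 were (43.8% to 47%, against 29% to 30%). In a 200 bp window, as in 300 bp, 9 of 15 motifs were more frequent in members than in all regions open in the 8 samples, promoters included, and 7 than in the distal ones.

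Of 79 called folds of named or listed members, 23 were past the threshold under all 13 alternatives. Of 1027 values, 799 kept direction and call, 224 lost the call and 4 changed sign, all with the covered-length offset for MGE over LGE: Kcnh8 (-0.22), Dlx6 (-0.01), Gad2 (-0.01) and Gad1 (-0.21). With 2 samples a group, calls rest on few residual degrees of freedom, and peak calling by sample limits what a count of 0 in CTX can show.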
